A study of Drosophila melanogaster with 63 samples.

Results

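The paired-domain genes paired (prd), gooseberry (gsb) and gooseberry-neuro (gsb-n), were followed through the segmentation and early differentiation of Drosophila melanogaster embryos. They were taken by symbol from the array's gene annotation, and each was measured by 1 array row. They are 3 of 9292 named genes, or of 12424 features in all. The study compared wild type embryos, eve mutant embryos and ftz mutant embryos, each sampled 2, 3, 6, 7, 8, 9 and 10 h after the eggs were laid. Every one of the 21 genotype-by-time groups held 3 arrays, 63 in all. Whole embryos were used, so that fewer cells expressing a gene and less RNA per cell cannot be told apart. Each array compared the RNA of a sample, in Cy3, with 1 common reference pooled over 0 to 22 h of embryogenesis, in Cy5. Values are given as log2 of sample over reference, so that 0 is the level of the reference and 1 unit a 2-fold difference. The base of the logarithm and the side of the reference are not stated, so the direction is likely rather than given. It rests on maternal transcripts and cellularization genes, whose list medians fell in wild type from 0.07 to -1.02 and from 1.32 to -1.44 between 2 and 10 h.

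The paired domain is a DNA-binding domain that these genes share with the vertebrate Pax genes, and all 3 proteins also carry a homeodomain. prd is a pair-rule gene: its protein is made in stripes in the blastoderm and is needed for alternate segment borders. gsb is a segment polarity gene that maintains wingless expression in a stripe of each segment, and Prd protein is known to switch it on. gsb-n lies beside gsb, is known to be activated by Gsb protein, and is expressed mainly in the central nervous system. In the gene table of the Release 6 plus ISO1 MT assembly, gsb (Dmel_CG3388) and gsb-n (Dmel_CG2692) are immediate neighbours on chromosome arm 2R, and prd (Dmel_CG6716) lies on 2L. The homeodomain proteins Eve and Ftz, which are missing or altered in the mutants, are pair-rule regulators that act at the same early stage as Prd.

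Both mutant stocks were kept over balancer chromosomes marked with GFP, and embryos of the wanted stages were genotyped, per the labels' protocols. The alleles are not named, and a mutation cannot be told apart from the rest of its stock. Whether the 3 arrays of a group hold separately collected embryos is not stated, so the p-values cover array-to-array spread, which may be technical. The eve transcript bore out the eve label at 2 h (-1.20 ± 0.14 against 0.51 ± 0.18 in wild type, SD, n = 3). Over 6 to 10 h it did so on average (-0.78 against -0.28), but not on every array. Eve mutant arrays 62, 63 and 64, at 8, 9 and 10 h, read -0.52, -0.45 and -0.39. These values lay within the wild type range pooled over 6 to 10 h (-0.55 to 0.16). At their own times, arrays 62 and 63 lay slightly below the lowest wild type array (-0.484 at 8 h and -0.445 at 9 h). Array 64 lay within the wild type range at 10 h. At 8 and 10 h the eve transcript was not called (limma, adjusted p = 0.099 and 0.232). The eve transcript did not bear out the label at 3 h. There the arrays labelled eve mutant stood at 0.17 ± 0.19 and wild type at -0.04 ± 0.14 (SD, n = 3). The ftz transcript in ftz mutants was close to wild type (0.67 ± 0.12 against 0.82 ± 0.03 at 2 h, SD, n = 3), and so was no check of the ftz label. Set against the wild type profile over all features, mutant arrays at 6 to 10 h on average resembled older wild type embryos. The mean was 1.09 h in eve mutants and 1.13 h in ftz mutants relative to wild type arrays. The profile ends at 10 h, and these ages ran from 7.45 to 9.8 h in eve and 7.25 to 9.9 h in ftz mutants. No mutant array at 10 h was therefore placed older than its label. The arrays labelled eve mutant at 3 h resembled wild type of 2.5 to 2.55 h, while the wild type arrays at 3 h spread from 2.85 to 4.05 h. Results at 3 h and over 6 to 10 h are given with this in view.

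In wild type, prd was highest at 2 h and low from 6 h on, gsb rose later and was highest at 6 and 7 h, and gsb-n stood higher from 6 h on than before. All 3 time courses passed the F test (limma, Benjamini-Hochberg adjusted p = 1.39e-12 for prd, 2.94e-07 for gsb and 0.000241 for gsb-n), as did 38.7% of all features. Over the 7 times the group means of prd spanned 1.54 log2 units and those of gsb 1.503, against a median of 0.40 over all features, and 96.97% and 96.7% of features spanned less. The span of gsb-n was 0.76, larger than in 81.6% of features.

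The wild type arrays for prd read 1.11, 1.08 and 0.84 at 2 h and 0.30, 0.74 and 0.22 at 3 h. All 3 arrays at 2 h lay above all 3 at 3 h, and all 6 lay above every later wild type array. At 6 to 10 h the 15 wild type arrays ran from -0.87 to -0.20, with a median of -0.40, and the 5 group means, between -0.53 and -0.31, overlapped each with its neighbour in order. prd fell by 0.59 (SE 0.15) from 2 to 3 h, where 12.2% of features were called, and by 0.89 (SE 0.15) from 3 to 6 h, where 7.24% were called (limma, adjusted p = 0.00694 and 9.91e-05). The first of these steps did not pass without wild type array 73 at 3 h (-0.49, adjusted p = 0.064).

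For gsb the wild type arrays read -0.34, -0.25 and -0.10 at 2 h, 1.16, 0.11 and 0.55 at 3 h, and 0.998, 1.60 and 1.22 at 6 h. The 3 h arrays were the most spread, and 1 of them lay within the range of the 6 h arrays. At 7 h the arrays read 0.74, 1.20 and 1.60, and by 10 h they had come down to 0.11, 0.28 and 0.53. In descending order the means stood at 1.27 at 6 h, 1.18 at 7 h, 0.65 at 8 h, 0.61 at 3 h, 0.39 at 9 h, 0.30 at 10 h and -0.23 at 2 h, and only the last 2 neighbours in this order, 10 h and 2 h, did not overlap in their arrays. The step up from 2 to 3 h was 0.84 (SE 0.21, adjusted p = 0.00382), that from 3 to 6 h 0.66 (adjusted p = 0.0384), and the fall from 6 to 10 h was -0.97 (adjusted p = 0.000645; limma, 12.6% of features called). The rise to 3 h did not pass without wild type array 71 at 3 h (0.56). The rise from 3 to 6 h did not pass without array 20 or 30 at 6 h or without array 72 or 73 at 3 h, with values from 0.41 to 0.69. With slide runs (stretches of neighbouring slide numbers in the sample titles) in the model, the step from 3 to 6 h (0.65) and the fall to 10 h (-0.75) did not pass. Some slide numbers occur in the titles of more than 1 array, so the arrays of a run need not share a batch.

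gsb-n was near or below the reference early, with wild type arrays at -0.15, -0.14 and -0.24 at 2 h and -0.42, -0.11 and -0.07 at 3 h. From 6 h on its 15 wild type arrays ran from 0.03 to 0.97, with a median of 0.41. Every array from 6 h on lay above every array at 2 and 3 h, while the 5 later means, 0.27 at 6 h and 0.47 to 0.56 at 7 to 10 h, overlapped each with its neighbour in order. None of the single steps passed the test, the largest being 0.47 (SE 0.18, adjusted p = 0.105) from 3 to 6 h. By the highest group mean the order in wild type was prd at 2 h, gsb at 6 h and gsb-n at 8 h, although for gsb-n the later times could not be told apart.

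**Figure D1:**
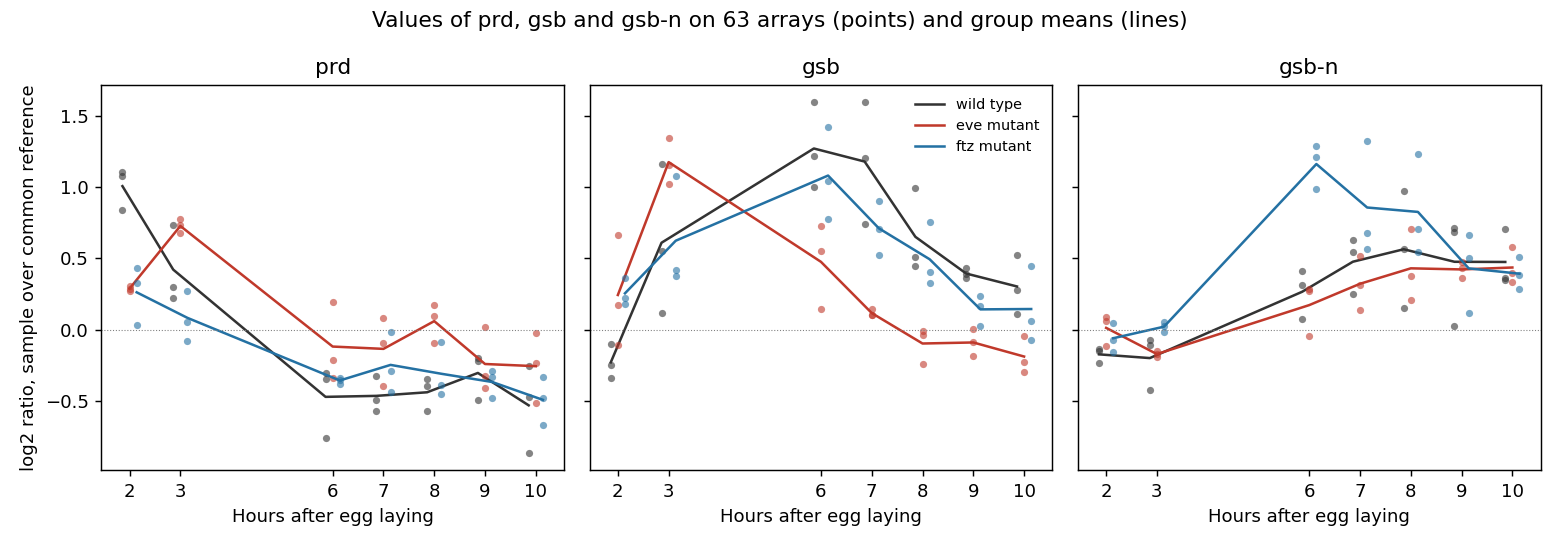
Log2 ratio of sample over common reference for prd, gsb and gsb-n (y axis) against hours after egg laying (x axis). Points are single arrays, 3 for each genotype and time, and lines join the group means of wild type (grey), eve mutant (red) and ftz mutant (blue). prd starts high in wild type at 2 h (mean 1.01), gsb of eve mutants falls below the other genotypes from 6 h, and gsb-n of ftz mutants stands above them at 6 h (mean 1.16).

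In both mutants the time course passed the F test for all 3 genes (54.2% of features in eve mutants, 47.4% in ftz mutants). The course of gsb-n in eve mutants did not pass once slide runs were added (adjusted p = 0.184). In the arrays labelled eve mutant prd was highest at 3 h, not at 2 h: it read 0.27, 0.28 and 0.31 at 2 h and 0.68, 0.73 and 0.77 at 3 h, with no overlap. The rise of 0.44 (adjusted p = 0.0315, 23.6% of features called) did not pass without any 1 of these 6 arrays, 51, 52 and 53 at 2 h and 71, 72 and 73 at 3 h, for which it ran from 0.42 to 0.47. prd then fell by 0.85 to 6 h (adjusted p = 3.89e-05, 26.2% called). In ftz mutants prd read 0.03, 0.32 and 0.43 at 2 h and -0.08, 0.05 and 0.27 at 3 h, which overlap, and the step of -0.18 did not pass (8.92% called). Its fall by 0.44 from 3 to 6 h passed (adjusted p = 0.0309, 24.4% called), but not without any 1 of arrays 40, 50 and 60 at 6 h or 72 and 73 at 3 h, with values from -0.45 to -0.35. It did not pass with slide runs added either (-0.39), where the ftz mutant arrays at 3 h and 6 h shared no slide run.

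gsb in the arrays labelled eve mutant was also highest at 3 h, at 1.16, 1.35 and 1.02, and all 3 lay above its 2 h and 6 h arrays. It rose by 0.93 from 2 to 3 h (adjusted p = 0.000663), fell by 0.70 to 6 h (adjusted p = 0.00872) and fell again by 0.67 to 10 h (adjusted p = 0.0228, 12.9% of features called). The fall from 3 to 6 h did not pass without array 60 at 6 h (-0.54) or 72 at 3 h (-0.62), nor the later one without arrays 40 or 50 at 6 h or 44 or 64 at 10 h (-0.65 to -0.54). With slide runs added, the steps of prd and gsb into and out of 3 h in the arrays labelled eve mutant did not pass, with values of 0.22 and -0.65 for prd and of 1.18 and -0.94 for gsb. The slide run of these 3 h arrays held only 1 other array, of wild type at 10 h. The slide run term for them rests on that array. In ftz mutants, as in wild type, gsb had its highest mean at 6 h, with 1.42, 1.04 and 0.78, and it fell by 0.94 to 10 h (adjusted p = 0.000788, 15.5% called). Its steps of 0.37 and 0.46 before 6 h did not pass, although the second passed without array 72 at 3 h (0.69, adjusted p = 0.0209) and with array weights (0.65).

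For gsb-n none of the steps passed in the arrays labelled eve mutant, and its means were -0.17 at 3 h, 0.17 at 6 h and between 0.32 and 0.44 later. The step from 3 to 6 h, 0.34, did pass with only the arrays compared in the fit (adjusted p = 0.0334) and with array weights (0.37, adjusted p = 0.0275). In ftz mutants its highest mean was already at 6 h, although the arrays at 7 h overlapped those at 6 h. Its arrays there read -0.02, 0.02 and 0.05 at 3 h and 1.21, 0.99 and 1.29 at 6 h, a rise of 1.14 (SE 0.18, adjusted p = 4.59e-06), followed by a fall of 0.77 to 10 h (adjusted p = 0.00137). Only 1.77% of features had a larger step between 3 and 6 h in ftz mutants.

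At 2 h prd was lower in both mutants than in wild type. The 3 arrays of each mutant, 0.27 to 0.31 in eve and 0.03 to 0.43 in ftz, all lay below the 3 wild type arrays, 0.84 to 1.11. The differences were -0.72 in eve mutants (SE 0.15, limma, adjusted p = 0.000485), where 21.6% of features were called and 11.3% called lower, and -0.75 in ftz mutants (SE 0.15, adjusted p = 0.00114), where 6.1% were called and 3.73% called lower. These are 1.65-fold and 1.68-fold lower levels, and 5.91% of features differed by more in eve mutants and 1.77% in ftz mutants. Both comparisons use the same 3 wild type arrays. Within the 1 run of slide numbers that holds all 3 genotypes at 2 h, with 2 wild type arrays, the differences were -0.81 and -0.83. The estimated ages at 2 h were 2 to 2.4 h in eve mutants, 2 to 2.15 h in ftz mutants and 2.05 to 2.15 h in wild type. The mutants did not differ detectably from each other, by 0.03 with a 95% interval from -0.28 to 0.34 (22.6% called).

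gsb at 2 h read 0.67, -0.11 and 0.17 in eve mutants and 0.18, 0.22 and 0.36 in ftz mutants. The ftz arrays lay above all wild type arrays and the eve arrays overlapped them, and the differences of 0.47 and 0.49 (SE 0.21 each) did not pass (adjusted p = 0.0959 and 0.181). The first passed without eve array 52 (0.65, adjusted p = 0.0345). gsb-n differed by 0.19 in eve mutants and 0.11 in ftz mutants, and neither passed. Thus 1 of the 3 genes, prd, was called at 2 h in each mutant.

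At 3 h none of the 3 genes passed against wild type in either mutant, where 9.57% of features were called in the eve and 13.7% in the ftz comparison. gsb was the largest, with 0.57 in the arrays labelled eve mutant (SE 0.21, adjusted p = 0.0743). Without wild type array 71, the highest of the wild type gsb values at that time, it was 0.84 and passed. prd stood 0.31 above wild type in those arrays and 0.34 below it in ftz mutants (-0.34), so that the mutants differed from each other by 0.65 (SE 0.15, adjusted p = 0.00742, 5.35% called). The 3 arrays labelled eve mutant lay above the 3 ftz arrays, but the call was lost without ftz array 71 (0.57, adjusted p = 0.0809) and with slide runs added (0.43). At 3 h the 3 genotypes lay in 3 different slide runs. A value there with slide runs added therefore rests on arrays of other times, and genotype and run cannot be told apart at 3 h. The estimated ages at 3 h were 2.5 to 2.55 h in these arrays and 2.65 to 3.75 h in ftz mutants. The mean of the cellularization list at 3 h was 0.38 to 0.47 in the arrays labelled eve mutant, -0.37 to 0.0009 in ftz mutants and -0.51 to -0.34 in wild type. The part of age in the values at 3 h was not tested.

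Over 6 to 10 h, hours after eve and ftz first act, the 3 genes went separate ways in eve mutants: gsb was lower than in wild type, prd was higher, and gsb-n did not pass. The 15 eve mutant arrays for gsb ran from -0.29 to 0.73, with a median of -0.01, against 0.11 to 1.60 with a median of 0.53 in wild type. At each of the 5 times all 3 eve mutant arrays lay below all 3 wild type arrays. The share of all features without overlap was not computed, here or for the other groups said not to overlap. The mean difference was -0.72 (SE 0.09, 95% interval -0.90 to -0.53, limma, adjusted p = 3.04e-08), a 1.64-fold lower level, and 1.18% of features differed by more. In this comparison 39.4% of all features were called, 19.8% lower and 19.6% higher.

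By time, gsb was lower in eve mutants by -0.80 at 6 h (adjusted p = 0.0105, 7.77% of features called), by -1.06 at 7 h (adjusted p = 0.00059, 9.46%) and by -0.75 at 8 h (adjusted p = 0.0216, 5.43%). At 7 h the eve mutant arrays read 0.10, 0.15 and 0.10 and the wild type arrays 0.74, 1.20 and 1.60. The call at 6 h was lost without eve array 60 (-0.63) or wild type array 20 (-0.63), and that at 8 h without eve array 62 (-0.68) or wild type array 32 (-0.58), while that at 7 h passed without any 1 of its 6 arrays. The call at 8 h was also lost with estimated age as a covariate (-0.60), and those at 6 and 8 h when only the arrays compared were fitted. Differences of -0.48 at 9 h and -0.49 at 10 h did not pass (8.7% and 7.98% called). The change of the difference over these 5 times did not pass (F = 1.36, adjusted p = 0.713, 1.42% called). Within the 1 slide run that holds both genotypes at all 5 times, with 17 arrays, the mean difference was -0.72, below 0 at every time. Adding the age estimates to the model gave -0.63 (adjusted p = 0.000591). Of 4 measured mesoderm markers, 4 were lower in eve mutants over 6 to 10 h (median -0.42), against 19.8% of all features. In ftz mutants 3 of the 4 were lower (median -0.24), against 19.7% of all features. At 6 h the mean of the 4 was -0.07 to 0.09 over the eve mutant arrays, 0.15 to 0.36 over the ftz mutant arrays and 0.45 to 0.75 over the wild type arrays. Of 5 measured neuroblast and neuron markers, 2 were lower and none higher in eve mutants over 6 to 10 h (median -0.16). Of all features 19.8% were called lower there and 19.6% higher. The part of mesoderm or neural tissue in the gsb differences was not tested.

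Averaged over the same times, prd in eve mutants exceeded wild type by 0.30 (SE 0.07, adjusted p = 0.000423), a 1.23-fold difference. Its 15 arrays ran from -0.52 to 0.19 with a median of -0.09, and those of wild type from -0.87 to -0.20 with a median of -0.40, so the groups overlapped widely. Of the single times, 8 h passed: the eve mutant arrays read 0.10, -0.09 and 0.17 and the wild type arrays -0.35, -0.40 and -0.58, a difference of 0.50 (adjusted p = 0.0439). That call was lost without any 1 of the 6 arrays, eve 42, 52 and 62 and wild type 12, 22 and 32, with values from 0.43 to 0.58. With estimated age as a covariate the mean difference was 0.27 and did not pass (adjusted p = 0.0535). Within the slide run shared at 5 times it was 0.31. Transcripts of the early embryo, when prd is high, were also higher in eve mutants over 6 to 10 h: 3 of 5 measured maternal transcripts were higher and 1 lower (median 0.36), and 2 of 5 cellularization genes were higher and none lower (median 0.33), against 19.6% of all features called higher. Their part in the prd difference was not tested. gsb-n differed by -0.10 (SE 0.08, adjusted p = 0.36), with a 95% interval from -0.26 to 0.07, and its arrays overlapped those of wild type at all 5 times. With the age covariate that value was 0.08, also not called.

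In ftz mutants over 6 to 10 h, gsb-n was higher than in wild type, gsb was lower by less than in eve mutants, and prd did not pass. gsb-n differed by 0.28 (SE 0.08, adjusted p = 0.00389), a 1.22-fold difference, where 40.4% of features were called, 20.7% higher and 19.7% lower. This comparison shares its wild type arrays with that of eve mutants. The difference lay mainly at 6 h, where the ftz arrays of 0.99 to 1.29 all lay above the wild type arrays of 0.07 to 0.41, a difference of 0.90 (SE 0.18, adjusted p = 0.000863, 6.42% called), which passed without any 1 of the 6 arrays. Later differences were 0.38 at 7 h, 0.26 at 8 h, -0.05 at 9 h and -0.08 at 10 h, none of which passed (8.14%, 7.65%, 8.12% and 8.86% of features called). The change over the 5 times did not pass across all features (F = 4.94, adjusted p = 0.105, 1.08% called). It passed without wild type array 33 at 9 h (F = 6.81, adjusted p = 0.0266). With slide runs added the 6 h difference was 0.77 (adjusted p = 0.00944) and the mean difference 0.27 (adjusted p = 0.124), and with the age covariate both passed (adjusted p = 0.000219 at 6 h, mean difference 0.46). The change over time also passed with the age covariate (F = 5.68, adjusted p = 0.0492). The ftz arrays numbered 40 to 44, a series with 1 array per time, averaged 0.99 for gsb-n. The other ftz series averaged 0.60 and 0.61, and the wild type series 0.43 to 0.46. The mean difference was not called with each series averaged into 1 value.

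Of the neuroblast and neuron markers, a tissue in which gsb-n is expressed, 5 of 11 listed genes were measured. In ftz mutants over 6 to 10 h none of the 5 was higher and 2 were lower, mira by -0.33 and nerfin-1 by -0.23, against 20.7% of all features called higher and 19.7% lower. Their mean level at 6 h was 0.48 to 0.64 over the ftz arrays and 0.01 to 0.63 over the wild type arrays, which overlap. Of 5 measured muscle genes, 4 were higher in ftz mutants over 6 to 10 h and 1 lower (median 0.55). In eve mutants, where gsb-n did not pass, 3 of the 5 were higher and 1 lower (median 0.36). There 19.6% of all features were called higher and 19.8% lower. The mean of the muscle genes at 6 h was -2.33 to -1.99 over the ftz arrays and -2.64 to -2.42 over the wild type arrays, with no overlap. At 9 and 10 h it averaged -1.84 and -1.40 in ftz mutants and -2.39 and -2.13 in wild type. At those times gsb-n differed by -0.05 and -0.08. The part of neural or muscle tissue in the gsb-n difference was not tested.

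gsb in ftz mutants was lower by -0.25 (SE 0.09, adjusted p = 0.0299), with no single time called and values from -0.47 at 7 h to -0.16 at 8 and 10 h. The call was lost without any 1 of 8 arrays, ftz 60 at 6 h, 61 at 7 h, 52 at 8 h and 54 at 10 h, and wild type 20 at 6 h, 31 at 7 h, 32 at 8 h and 34 at 10 h, with values from -0.23 to -0.20. With the age covariate it was -0.15 and did not pass. In the 1 slide run that holds both genotypes, at 2 times and with 5 arrays, the difference was -0.71. prd differed by 0.09 (95% interval -0.05 to 0.23).

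**Figure D2:**
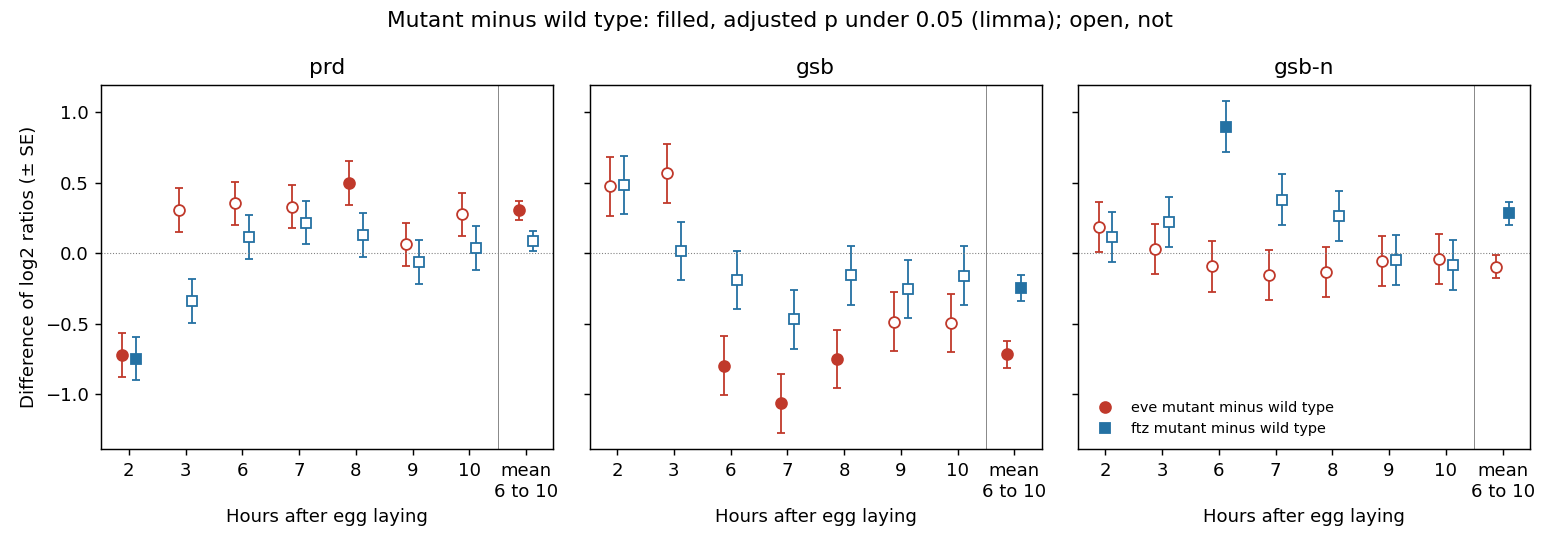
Difference of log2 ratios between each mutant and wild type for prd, gsb and gsb-n (y axis) at each time and over the mean of 6 to 10 h (x axis), with standard errors from limma. Circles are eve mutants, squares ftz mutants, and filled symbols passed at an adjusted p under 0.05. prd is lower in both mutants at 2 h, gsb is lowest in eve mutants at 7 h (-1.06), and gsb-n is highest in ftz mutants at 6 h (0.90).

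The mutants also differed from each other over 6 to 10 h in all 3 genes, against 36.0% of features called. Relative to ftz mutants, eve mutants had lower gsb by -0.47 (SE 0.09, adjusted p = 8.66e-05), lower gsb-n by -0.38 (SE 0.08, adjusted p = 0.000232) and higher prd by 0.22 (SE 0.07, adjusted p = 0.0117). For gsb the arrays of the mutants did not overlap at 6, 7, 8 and 9 h, and for gsb-n at 6 and 7 h. Within the 1 slide run that holds both mutants, at 3 times and with 6 arrays, the values were -0.66 for gsb, -0.36 for gsb-n and 0.15 for prd. The eve mutant arrays of that run were 62, 63 and 64, whose eve transcript lay within the wild type range pooled over 6 to 10 h. The prd difference was not called with slide runs added (0.18, adjusted p = 0.263) or with each series of 5 arrays averaged into 1 value (adjusted p = 0.086).

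Because gsb and gsb-n were read on the same arrays, their difference within each array shows whether they moved apart. gsb minus gsb-n averaged 0.31 over the 15 wild type arrays at 6 to 10 h, -0.31 in eve mutants and -0.22 in ftz mutants. The 0 of this difference depends on the levels in the reference, so only the shift between genotypes is read. It was -0.62 in eve mutants (permutation of genotype labels within time, adjusted p = 3e-05 over 9 tests, p = 1e-05 being the smallest the permutations can give) and -0.53 in ftz mutants (permutation, adjusted p = 0.00036), in the same direction at 5 of 5 times in each. The mutants differed from each other by -0.09 (permutation, adjusted p = 0.346). Each gene on its own differed from wild type by -0.72 for gsb and -0.10 for gsb-n in eve mutants, and by -0.25 and 0.28 in ftz mutants. Both shifts kept their sign within slide runs, at -0.66 (5 times) and -0.18 (1 time) for eve mutants and -1.19 (2 times) for ftz mutants. The permutation tests of gene pairs treat arrays of different times as independent. They were not repeated with each series of 5 arrays, 1 per time, averaged. No share over other pairs of genes was computed.

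prd minus gsb rose from -1.20 in wild type to -0.18 in eve mutants, by 1.02 (permutation, adjusted p = 3e-05), and to -0.87 in ftz mutants, by 0.33 (permutation, adjusted p = 0.00347). prd minus gsb-n was -0.89 in wild type and -0.50 in eve mutants, a shift of 0.40 (permutation, adjusted p = 0.00674), while the shift of -0.19 in ftz mutants did not pass (permutation, adjusted p = 0.193). The mutants differed from each other in both, by 0.69 for prd minus gsb and by 0.59 for prd minus gsb-n (permutation, adjusted p = 3e-05 and 0.00119).

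**Figure D3:**
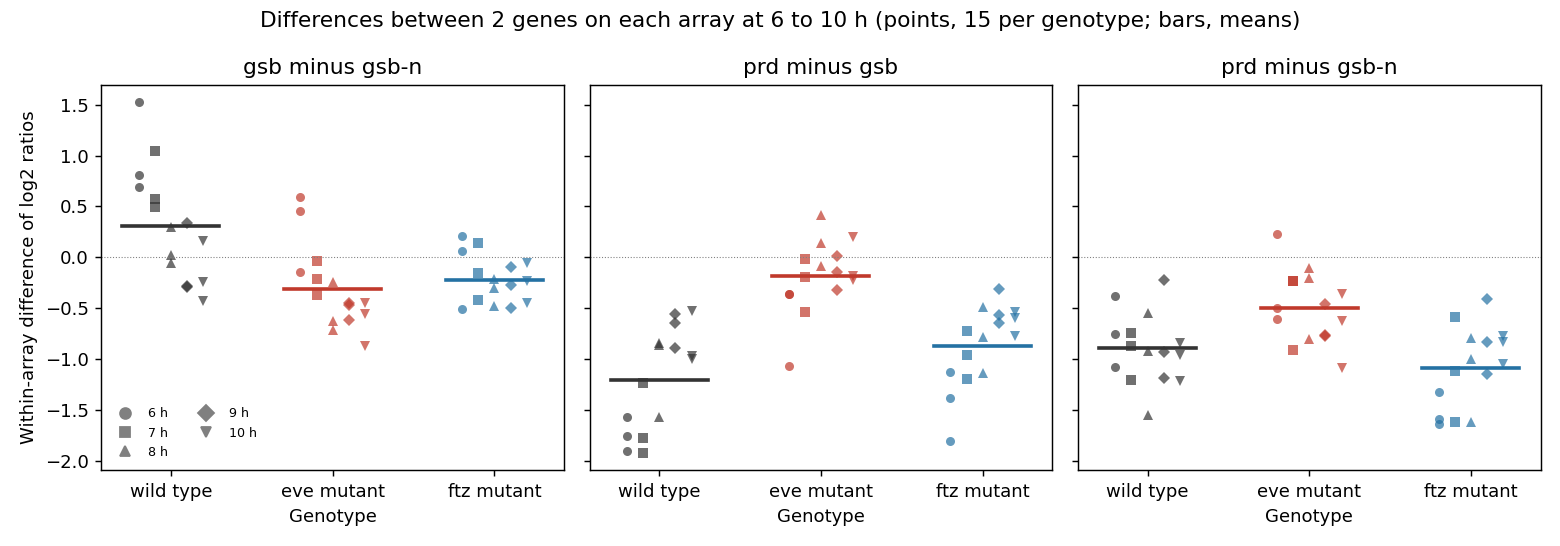
Within-array difference of log2 ratios between pairs of the 3 genes (y axis) by genotype (x axis) at 6 to 10 h. Points are the 15 arrays of a genotype, with the shape giving the time, and bars are means. gsb minus gsb-n is higher on average in wild type (0.31) than in eve mutants (-0.31) and ftz mutants (-0.22), and prd minus gsb is highest on average in eve mutants (-0.18).

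The difference from wild type changed between early and late times for prd and gsb. That in prd changed between 2 h and the mean of 6 to 10 h by 1.02 in eve mutants (SE 0.17, adjusted p = 1.16e-05, 22.6% of features called) and by 0.83 in ftz mutants (SE 0.17, adjusted p = 0.00111, 8.56% called). For gsb the change was -1.19 (SE 0.23, adjusted p = 9.76e-05) and -0.73 (SE 0.23, adjusted p = 0.0331). The last of these was lost without any 1 of the 6 arrays at 2 h, wild type and ftz 51, 52 and 53, with values from -0.80 to -0.68, and with slide runs added (-0.81). gsb-n changed by -0.28 and 0.17, neither of which passed. In the arrays labelled eve mutant the difference in prd changed already between 2 and 3 h, by 1.03 (SE 0.22, adjusted p = 0.000868, 15.9% called), and in ftz mutants by 0.41, which did not pass (0.41% called). The first of these was 0.80 with slide runs added and did not pass. No wild type array at 3 h lay in the slide run of the arrays labelled eve mutant at that time. Only prd in eve mutants was called on both sides, lower at 2 h and higher over 6 to 10 h. These contrasts were added after the values had been seen.

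Other paired-domain genes are mostly expressed later or in other organs, and 6 of the remaining 7 were measured. Compared with wild type over 6 to 10 h, 1 of the 6 was called in each mutant, against 39.4% of all features in eve and 40.4% in ftz mutants. In eve mutants it was Poxn, which specifies poly-innervated sense organs, at -0.27 (SE 0.06, adjusted p = 0.000575), and in ftz mutants sv, also called shaven, which acts in sense organ and eye development, at 0.29 (SE 0.08, adjusted p = 0.00302). The medians over the 6 were -0.02 in eve and 0.06 in ftz mutants, and those over all features 0.003 and 0.005. For Poxm, a mesodermal member, the differences were 0.09 and -0.05, for the eye gene ey -0.07 and 0.09, for its paralogue toy 0.21 and -0.03, and for eyg 0.03 and 0.05, none of which passed. At 2 h Poxn was lower in eve mutants by -0.49 (adjusted p = 0.00949), and none of the 6 was called in ftz mutants. Between the mutants over 6 to 10 h more were called. Relative to ftz mutants, 2 of the 6 were higher and 3 lower in eve mutants (median -0.09), against 36.0% of all features called.

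Among the 7 other measured pair-rule genes, 5 were lower and none higher in eve mutants at 2 h, when prd was lower too and 11.3% of all features were called lower. Those with the smallest p were eve (-1.71) and ftz (-1.14), the genes mutated in the study, and sob (-0.65) and odd (-0.50), related zinc finger genes. In ftz mutants at 2 h 3 of the 7 were lower, namely eve (-0.67), the hairy gene hry (-0.57) and odd (-0.45), and none was higher, against 3.73% of all features called lower. The medians of the 7 were -0.50 and -0.19 at 2 h. At 2 h and over 6 to 10 h the counts for eve mutants include eve itself, as does their median. Its transcript was used above to check the eve label, so it is no separate result. Over 6 to 10 h 3 were lower and 1 higher in eve mutants, where prd was higher and 19.8% of all features were called lower and 19.6% higher: eve (-0.50), slp2 (-0.34) and sob (-0.24) were lower and hry (0.37) was higher. In ftz mutants 1 was higher, hry (0.17), and 1 lower, Ten-m (-0.14), which encodes a teneurin membrane protein, against 20.7% and 19.7% of all features.

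Of the 8 other measured segment polarity genes, 4 were lower and none higher in eve mutants over 6 to 10 h, as gsb was, against 19.8% and 19.6% of all features. They were hh (-0.55), which encodes the Hedgehog signal, inv (-0.38) and en (-0.34), paralogous homeobox genes, and smo (-0.25), which transduces the Hedgehog signal. The median of the 8 was -0.18, and gsb, at -0.72, was lower than any of them. In ftz mutants 4 were lower, among them hh (-0.30), inv (-0.28) and smo (-0.27), 1 was higher, mid (0.26), and the median was -0.13, against 19.7% of all features called lower and 20.7% higher. The gene wg, which Gsb maintains, is not analysed here.

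Over the 21 group means, prd and gsb-n ran opposite to each other (r = -0.74), and gsb was nearly unrelated to either (r = -0.17 with prd and 0.16 with gsb-n). These correlations and those that follow are descriptions over 21 groups that share a reference and a time course. The 5 named genes most like prd were Mdr49, a transporter of the multidrug resistance family (r = 0.93), Smyd4-1 (0.92), CG1503 (0.92), CG13653 (0.91) and Pgm2a (0.90). Most like gsb were l(2)37Cb (0.91), the pair-rule gene slp2 (0.91), which also encodes a transcription factor required for wingless expression, ETH (0.90), the POU-domain gene pdm2 (0.88) and Rrp4 (0.85). Most like gsb-n were CG31883 (0.92), alpha-Man-IIa (0.91), insc (0.905), lmd (0.90) and CG5611 (0.90). insc encodes a protein of asymmetric neuroblast division and lmd a transcription factor of muscle precursors. The groups that chose these genes are those compared above, so their own differences are not given here. Only slp2 has a difference above, as a member of the pair-rule list. The ranking depended on the measure: by Spearman correlation slp2 came first for gsb and alpha-Man-IIa for gsb-n, and CG13653 was at rank 542 for prd.

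**Figure D4:**
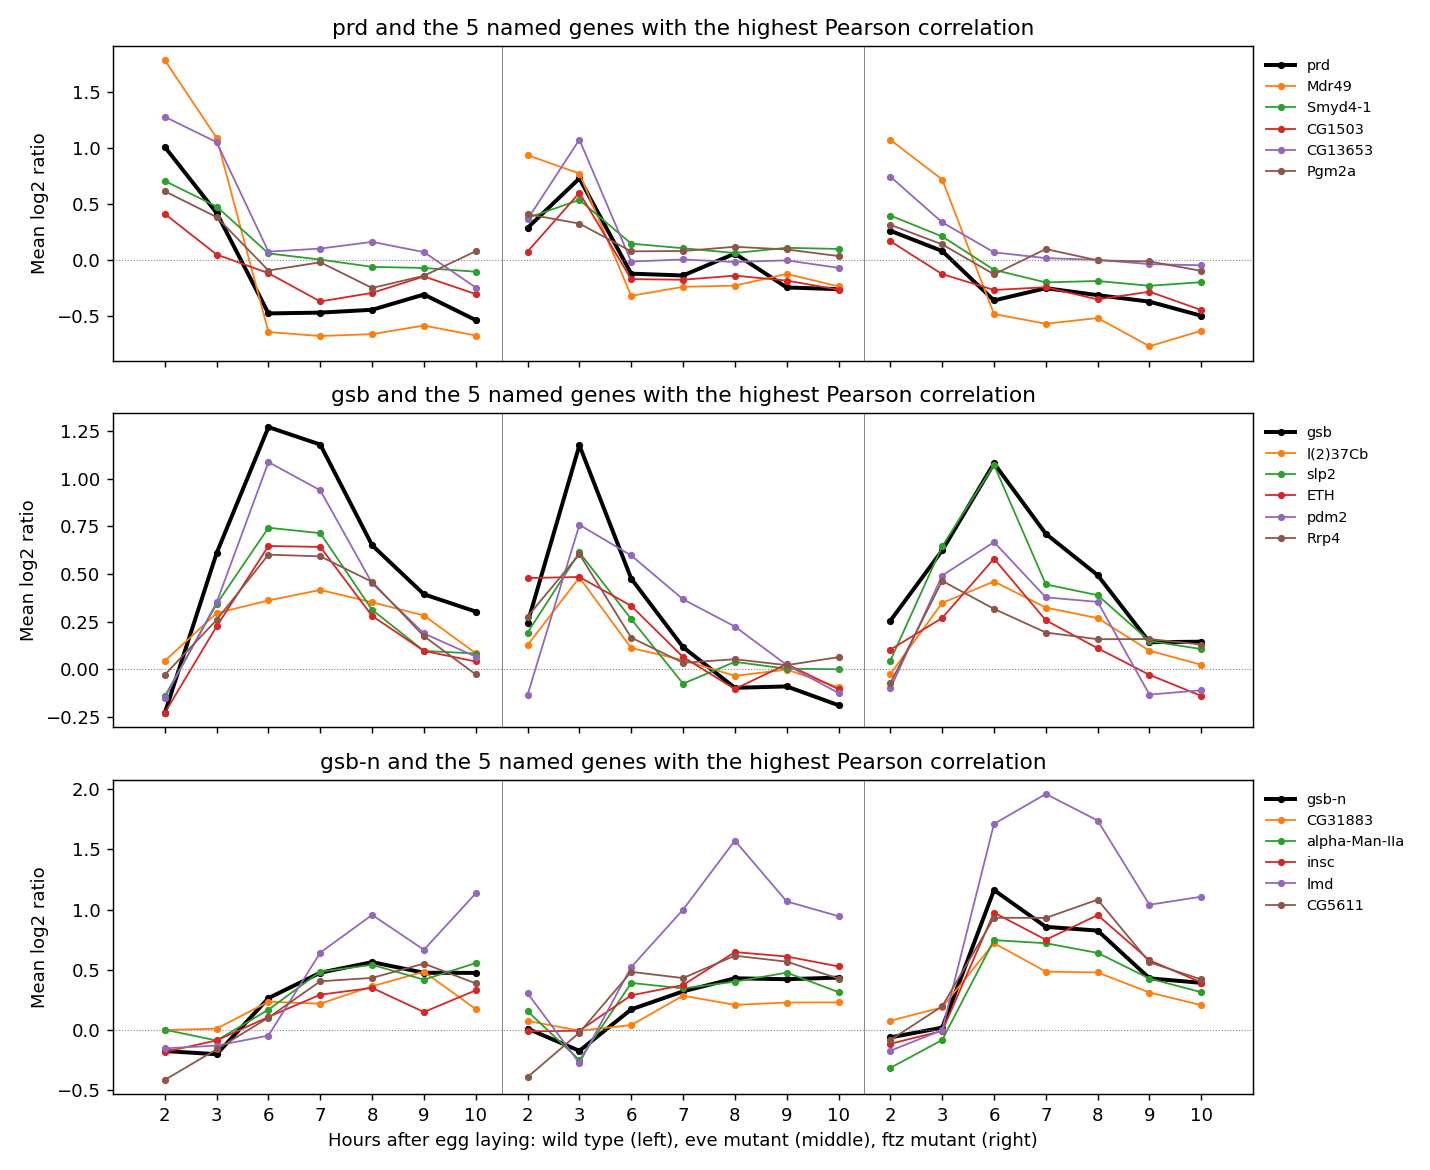
Mean log2 ratio (y axis) in each genotype and time (x axis: 7 times in wild type, then eve mutant, then ftz mutant) for prd, gsb and gsb-n (black) and, in colour, the 5 named genes with the highest Pearson correlation to each over 21 groups. Each point is the mean of 3 arrays. The genes like prd are highest at 2 or 3 h, those like gsb mostly at 3 to 7 h, and those like gsb-n are highest in ftz mutants at 6 to 8 h.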

How the data were processed

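Total RNA was extracted with Trizol, per the labels' protocols. The authors deposited 1 table of log ratios, taken here as log2; limma was used, per the submitters' processing notes, with no version given. The sources used here give neither the background correction nor any filter. Deposited log2 values have the same distribution on every array (largest gap between sorted values 0.000784), so they were used as quantile normalized already. Of 20000 rows 13228 held values, and rows of 1 symbol were averaged. All 63 arrays entered 1 limma 3.58.1 fit (R 4.3.3) with a mean per group, 42 residual degrees of freedom, empirical Bayes moderation, 2-sided tests and Benjamini-Hochberg adjustment over 12424 features within a contrast. A feature called passed at 0.05. Differences between 2 genes were tested by 100000 permutations of genotype labels within time, with arrays rather than genes as units. The fit was tested on simulated data. Named genes were the 3 genes, eve and ftz, the 5 most correlated with each, all measured paired-domain genes and up to 4 called members of a list with the smallest p. Members and lists were chosen with earlier results of these data known. Age was estimated as the best-correlated point of the interpolated wild type profile. Alternatives covered the arrays in the fit, scaling, array weights, moderation, filtering, slide runs, age, replicate numbers, series means and leaving out each array. The number of arrays limits the precision.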

Additional observations from a re-analysis of the deposited data

Results flagged for a closer look

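For 5 results the difference between a mutant and wild type changed with time by a test of that change in the same limma model. For prd it changed between 2 h and the mean of 6 to 10 h by 1.02 in eve mutants and by 0.83 in ftz mutants, from lower to higher or close to wild type. In the arrays labelled eve mutant it changed by 1.03 between 2 and 3 h. For gsb it changed between 2 h and the mean of 6 to 10 h by -1.19 in eve mutants and by -0.73 in ftz mutants, from higher values that did not pass to lower ones that did. No group of 4 or more samples was tested for a single far value, since each group holds 3 arrays.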

How the results depend on the processing

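Of 870 values recomputed under settings other than leaving out an array, 833 kept their side of the threshold, 27 lost a call and 10 gained one. No call changed sign, and 15 values uncalled in both settings did. With only the arrays compared in the fit, gsb at 2 h in ftz mutants passed (0.49). With array weights gsb passed at 2 h in eve mutants (0.60) and ftz mutants (0.52) and at 3 h in the arrays labelled eve mutant (0.62). With slide runs as a term 3 means over 6 to 10 h did not pass, gsb (-0.34) and gsb-n (0.27) in ftz mutants and prd between the mutants (0.18). With estimated age prd in eve mutants (0.27) and gsb in ftz mutants (-0.15) did not. With each series of 5 arrays averaged, gsb (-0.25) and gsb-n (0.28) in ftz mutants and prd between the mutants (0.22) did not; fewer values were tested there. Of 1647 values recomputed with 1 array left out, 1594 kept their side. The difference of gsb ran from 0.26 to 0.65 at 2 h in eve mutants and from 0.32 to 0.84 in the arrays labelled eve mutant at 3 h, and from -0.29 to -0.20 over 6 to 10 h in ftz mutants. With the replicate block 21 of 21 values kept their call, such as -0.47 for gsb between the mutants over 6 to 10 h, although same-numbered arrays deviated together with r over 0.1 in only 1 of 33 pairs. The counts of features called changed by more than 1.5 times under some settings. Over 6 to 10 h the eve comparison called 4901 features, and 2309 with the age covariate and 2191 with series averaged. The ftz comparison called 5023, with 2122 under slide runs, 2900 under age and 2354 with series averaged. That between the mutants called 4477, and 1741 under slide runs and 1598 with series averaged. For the change of the ftz difference from 2 to 3 h array weights called 645 features instead of 51, the largest move. They called 2432 instead of 758 at 2 h in ftz mutants and 3649 instead of 665 between the mutants at 3 h. At 3 h, where the genotypes lay in different slide runs, slide runs left 226 of 1189 in the eve comparison. At 8 h age left 219 of 675. Over 32 single contrasts the count moved by more than 1.5 times in 16 with array weights, 11 with slide runs and 10 with age. The causes were not tested.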
